A study of Homo sapiens with 2 samples.

Results

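The proteasome genes are those that encode the subunits, activators, inhibitor and assembly chaperones of the proteasome, taken by symbol as protein-coding genes named PSMA, PSMB, PSMC, PSMD, PSME, PSMF or PSMG plus a number. Of 19974 protein-coding genes on chromosomes 1 to 22 and X, 46 qualified, after 2 further ones, PSMB8 and PSMB9, were left out because they lie in the major histocompatibility region of chromosome 6, which the rule leaves out. Chromatin accessibility was read with ATAC-seq, which uses Tn5 transposase to insert sequencing adapters where DNA is not covered by nucleosomes. The cells were CAL27, an established line from an oral squamous cell carcinoma, as 1 library of cells given 10 mM lactate for 24 h and 1 library of untreated cells. With 1 library per group there is no replicate check and no test, so every difference below compares these libraries and not the conditions. A change in the share of cells with an open site cannot be told apart from a change in cutting per cell.

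The proteasome degrades proteins that carry ubiquitin chains. Its 20S core is a barrel of alpha and beta rings, in which the beta subunits PSMB5, PSMB6 and PSMB7 hold the proteolytic sites, and its 19S cap recognises, unfolds and feeds in substrates through ATPases (PSMC) and non-ATPase subunits (PSMD). Most of the subunit genes are expressed in nearly all cells, a few such as PSMA8 and PSMB11 in particular tissues, and in mammals the transcription factor NFE2L1 raises many of them together when proteasome activity falls.

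The lactate library held 15401276 tags in 122399 regions and the untreated library 18248413 tags in 98152 regions. The value used for a gene is its highest summit pileup, the number of 200 bp tags over a summit, among regions within 1 kb of either annotated gene end, scaled to 1000000 tags in the library and called scaled tags, while plain tags are not scaled. Of 9 markers of squamous epithelium, 7 had such a region in both libraries and KRT14 and TP63 in neither. Of 8 markers of fibroblasts, leukocytes and endothelium, 5 had one in both and PTPRC, PECAM1 and CDH5 in neither. Inside the gene, TP63 held 22 lactate and 17 untreated regions, PTPRC 7 and 4, PECAM1 6 and 3, CDH5 1 and 1, and KRT14 none. Summed levels at gene ends were 27.7 scaled tags for the squamous and 25.5 for the other markers in the lactate library. In the untreated library they were 15.8 and 12.8, and the part of these markers in the results was not tested.

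Proteasome genes were open at a gene end more often than protein-coding genes at large. A gene-end region was listed by both libraries at 38 of 46 members (82.6%, exact 95% binomial interval 68.6 to 92.2), against 61.8% of all protein-coding genes. The lactate library alone had one at 3 members, PSMB11, PSMF1 and PSMG2 (background 6.09%), and the untreated library alone at 1, PSMC2 (background 0.836%). Neither library had one at 4 members, PSMA1, PSMA6, PSMA8 and PSMG4 (background 31.3%). All 14 PSMD genes, all 7 PSMB1 to PSMB7 genes and all 4 PSME genes were in the group open in both.

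At 3 of the 4 members open in neither library, the start site that RefSeq lists lies inside the annotated gene, away from its ends, and that start was open in both libraries. RefSeq start sites were at hand for 40 of the 46 members (all but PSMD4, PSMB1, PSMG3, PSMB7, PSMB6 and PSMA7). A region covered a listed start in both libraries at 35 of these 40 (87.5%), against 54.0% of 15812 protein-coding genes with a listed start. PSMA1, which encodes an alpha subunit, had 60 lactate and 52 untreated tags there (chromosome 11, start at 14520386). PSMA6, another alpha subunit gene, had 40 lactate and 20 untreated tags (chromosome 14, start at 35292317). PSMG4, a chaperone of core assembly, had 24 lactate and 27 untreated tags (chromosome 6, start at 3258947). At PSMF1, whose product PI31 binds and inhibits the core in vitro, the region at an inner start held 47 lactate and 32 untreated tags.

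Some calls turned on the 1 kb limit. The lactate-only region counted for PSMF1 held 18 tags and lay 879 bp from the gene end (chromosome 20, 1114142 to 1114388). That of PSMG2, a core assembly chaperone, held 16 tags at 577 bp. Just outside the limit, PSMA6 had a region of 22 lactate and 11 untreated tags at 1050 and 1037 bp, and PSMG4 one of 83 lactate and 40 untreated tags at 1183 and 1216 bp. At PSMG2 a lactate region of 43 tags covered an inner start. No untreated region covered a listed start of PSMG2, but one lay within 1 kb of a listed start.

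The members without an open start in one or both libraries were few. PSMA8, the alpha subunit made in testis, had no region over its start in either library, and the nearest was a narrow region 1145 bp beyond the far gene end (89 lactate and 56 untreated tags). PSMB11, the beta subunit of thymus epithelium, had 9 lactate tags in a region 132 bp from its gene end and no untreated region. PSMC2, an ATPase of the cap, went the other way: the untreated library listed a region over the start with 20 tags and a fold enrichment of 3.95 over local background (chromosome 7, 103347554 to 103347980), and the lactate library listed none. The nearest lactate region lay 1866 bp from the gene end, with 125 tags there in the lactate and 55 in the untreated library, and was narrow (221 bp). At PSMB10 a lactate region of 47 tags covered the start, and the untreated region ended short of it. That lactate region was narrow (226 bp), with a fold enrichment of 3.14.

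The regions covering a start had their summits just upstream of it. In the lactate library 33 of 37 summits lay upstream, with a median of -76 bp, and in the untreated library 30 of 36, with a median of -60.5 bp. Summits lay within 200 bp of a start at 32 genes in the lactate and 30 in the untreated library. The farthest upstream was that of PSME2, at -684 bp in the lactate and -692 bp in the untreated library, in a region that also covers an end of RNF31. Over the 35 genes covered in both, the summits of the libraries were a median of 27 bp apart, and 27 pairs lay within 50 bp. These regions were chosen for covering a start, so closeness to it is partly set by that choice. Summit positions over all protein-coding genes were not counted, so nothing here is particular to proteasome genes.

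**Figure D1:**
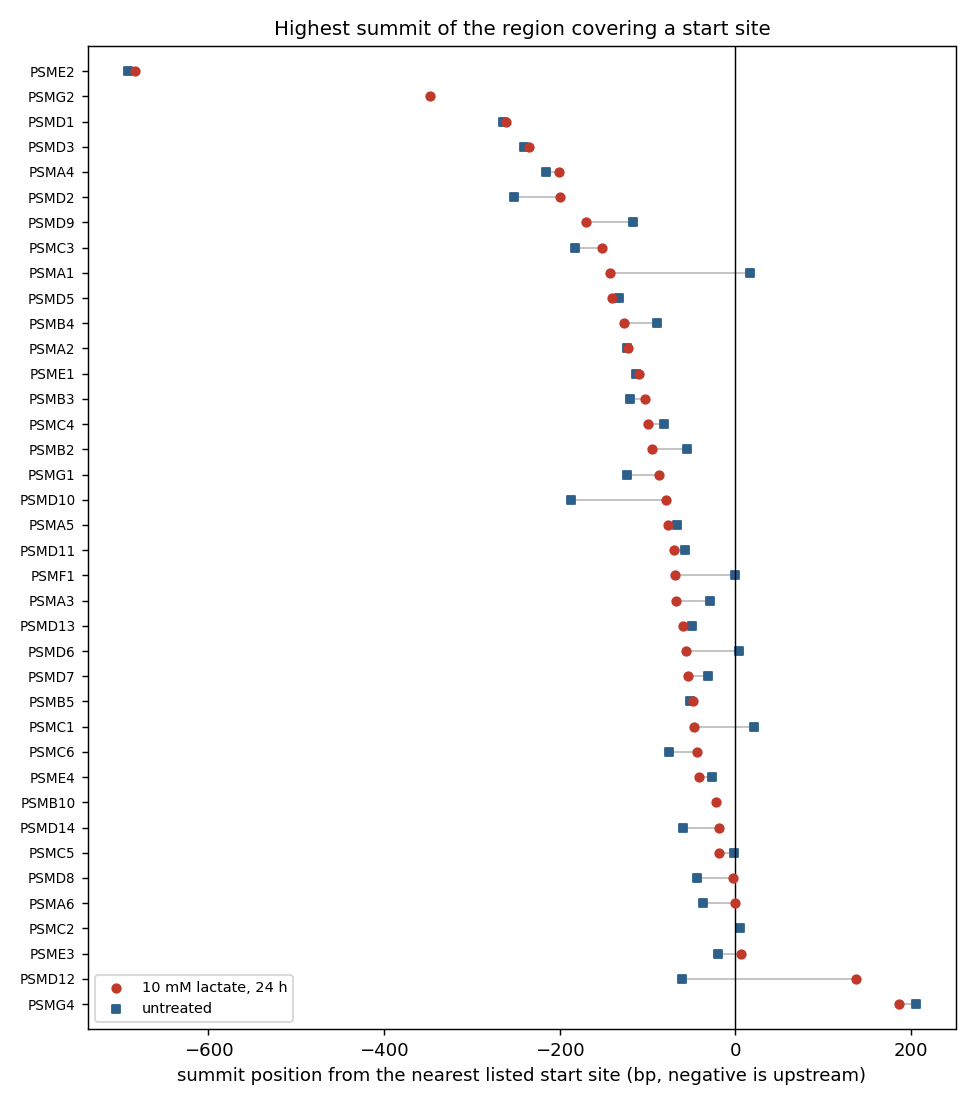
Position of the highest summit in the region that covers a RefSeq start site, for 38 proteasome genes, in bp from the nearest listed start (negative is upstream). Circles are the lactate library and squares the untreated library, with a line joining the pair, and 32 lactate and 30 untreated summits lie within 200 bp of the start.

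The promoters that carry the values described below are shown as the 250 bases before the listed start, from RefSeq on GRCh38.p14, 5′ to 3′ on the gene's strand. Capitals mark matches, on either strand, to the antioxidant response element core TGANNNNGC, CCAAT, the ETS core CCGGAA, the GC box GGGCGG, the nuclear respiratory factor core GCATGCG, the YY1 core ATGGCGG, the E-box CACGTG and the TATA box TATAAA, and matches that overlap run together. PSMB5, PSMC3 and PSMB2 had the lowest relative ratios of lactate to untreated, PSME4 the highest, PSMD5 the most tags, PSMC2 a region in the untreated library alone and PSMA8 none.
PSMB5, chr14:23035221-23035470, minus strand: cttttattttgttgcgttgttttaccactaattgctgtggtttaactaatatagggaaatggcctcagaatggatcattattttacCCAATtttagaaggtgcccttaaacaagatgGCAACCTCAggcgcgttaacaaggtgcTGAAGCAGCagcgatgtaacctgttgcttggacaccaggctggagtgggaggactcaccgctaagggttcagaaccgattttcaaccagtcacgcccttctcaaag
PSMC3, chr11:47426440-47426689, minus strand: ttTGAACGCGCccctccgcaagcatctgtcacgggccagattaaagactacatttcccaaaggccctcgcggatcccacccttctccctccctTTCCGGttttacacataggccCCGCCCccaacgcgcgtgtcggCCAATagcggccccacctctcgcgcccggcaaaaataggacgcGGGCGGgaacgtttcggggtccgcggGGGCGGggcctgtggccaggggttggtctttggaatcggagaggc
PSMB2, chr1:35641527-35641776, minus strand: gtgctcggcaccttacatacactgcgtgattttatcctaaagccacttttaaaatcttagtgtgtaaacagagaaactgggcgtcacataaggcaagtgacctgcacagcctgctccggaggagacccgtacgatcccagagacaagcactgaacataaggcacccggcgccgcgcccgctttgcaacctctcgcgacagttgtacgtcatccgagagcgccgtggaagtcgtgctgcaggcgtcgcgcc
PSME4, chr2:53970994-53971243, minus strand: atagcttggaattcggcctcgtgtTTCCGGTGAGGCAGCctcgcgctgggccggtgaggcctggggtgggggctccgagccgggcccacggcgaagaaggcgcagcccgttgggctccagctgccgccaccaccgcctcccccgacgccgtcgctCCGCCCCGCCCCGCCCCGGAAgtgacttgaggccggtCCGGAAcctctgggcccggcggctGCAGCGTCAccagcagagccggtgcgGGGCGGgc
PSMD5, chr9:120842923-120843172, minus strand: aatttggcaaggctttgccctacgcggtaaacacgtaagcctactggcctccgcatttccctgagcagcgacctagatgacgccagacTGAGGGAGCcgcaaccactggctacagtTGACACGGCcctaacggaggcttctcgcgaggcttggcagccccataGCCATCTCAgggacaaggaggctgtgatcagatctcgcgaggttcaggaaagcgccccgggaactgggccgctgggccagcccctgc
PSMC2, chr7:103347393-103347642, plus strand: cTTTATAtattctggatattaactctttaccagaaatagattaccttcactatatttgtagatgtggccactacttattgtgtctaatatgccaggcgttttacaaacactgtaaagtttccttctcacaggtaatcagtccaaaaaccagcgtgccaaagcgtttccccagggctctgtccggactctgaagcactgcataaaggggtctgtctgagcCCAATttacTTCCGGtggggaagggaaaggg
PSMA8, chr18:26133619-26133868, plus strand: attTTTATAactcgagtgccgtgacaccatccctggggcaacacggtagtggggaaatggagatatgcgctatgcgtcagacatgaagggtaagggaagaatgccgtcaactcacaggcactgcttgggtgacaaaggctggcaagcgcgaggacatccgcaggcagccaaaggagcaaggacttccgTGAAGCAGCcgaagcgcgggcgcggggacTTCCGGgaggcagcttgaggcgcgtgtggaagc

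In these bases PSMC3 holds 3 GC boxes, a CCAAT box, an ETS core and an antioxidant response element core, PSMB5 a CCAAT box and 2 antioxidant response element cores, and PSMD5 3 such cores. PSME4 holds 3 ETS cores and 4 GC boxes, of which some adjoin, and 2 antioxidant response element cores. PSMC2 and PSMA8 each hold an ETS core near the start and a TATA box. PSMC2 also holds a CCAAT box, and PSMA8 an antioxidant response element core. PSMB2 holds no complete match before its start. Over the 40 members with a listed start, in windows that run from 250 bases before to 50 after it, the ETS core was present in 19 (47.5%, exact interval 31.5 to 63.9), against 22.7% of 15812 protein-coding promoters. The antioxidant response element core was present in 24 (60%, 43.3 to 75.1), against 42.7%. CCAAT was present in 18 (45%, 29.3 to 61.5) against 36.4%, and the GC box in 26 (65%, 48.3 to 79.4) against 58.3%. The YY1 core (12.5% against 7.58%), the TATA box (12.5% against 9.75%), the E-box (7.5% against 8.82%) and the nuclear respiratory factor core (5% against 5.15%) were less common. Members held a median of 22 CG pairs per window, as did all promoters. A match is a run of letters and was not tied to any factor here.

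**Figure D2:**
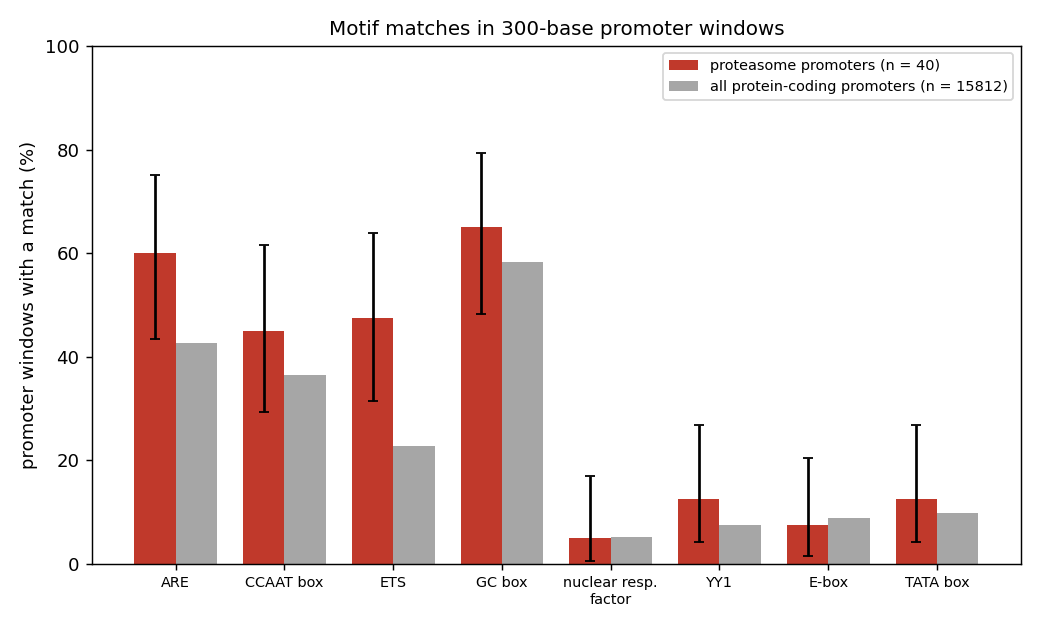
Share of 300-base promoter windows with at least 1 match to each motif, in percent. Red bars are the 40 proteasome promoters with exact 95% binomial intervals and grey bars all 15812 protein-coding promoters. Of the 8 motifs only the ETS and antioxidant response element (ARE) intervals lie wholly above the grey bar, ARE with a lower limit of 43.3 against 42.7%. No allowance was made for looking at 8 motifs.

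Proteasome gene ends were taller than those of other genes in both libraries. Over the 38 members open in both, the median summit was 4.58 scaled tags in the lactate library and 2.82 in the untreated library. Over all 12344 genes open in both the medians were 3.44 and 1.92. Members ranged from 0.844 (PSMD6) to 18.4 (PSMD5) scaled tags in the lactate library and from 0.658 (PSMD6) to 7.45 (PSMD5) in the untreated library. By tags of both libraries together, 29 of the 38 fell in the upper 10 of 20 bins of genes.

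**Figure D3:**
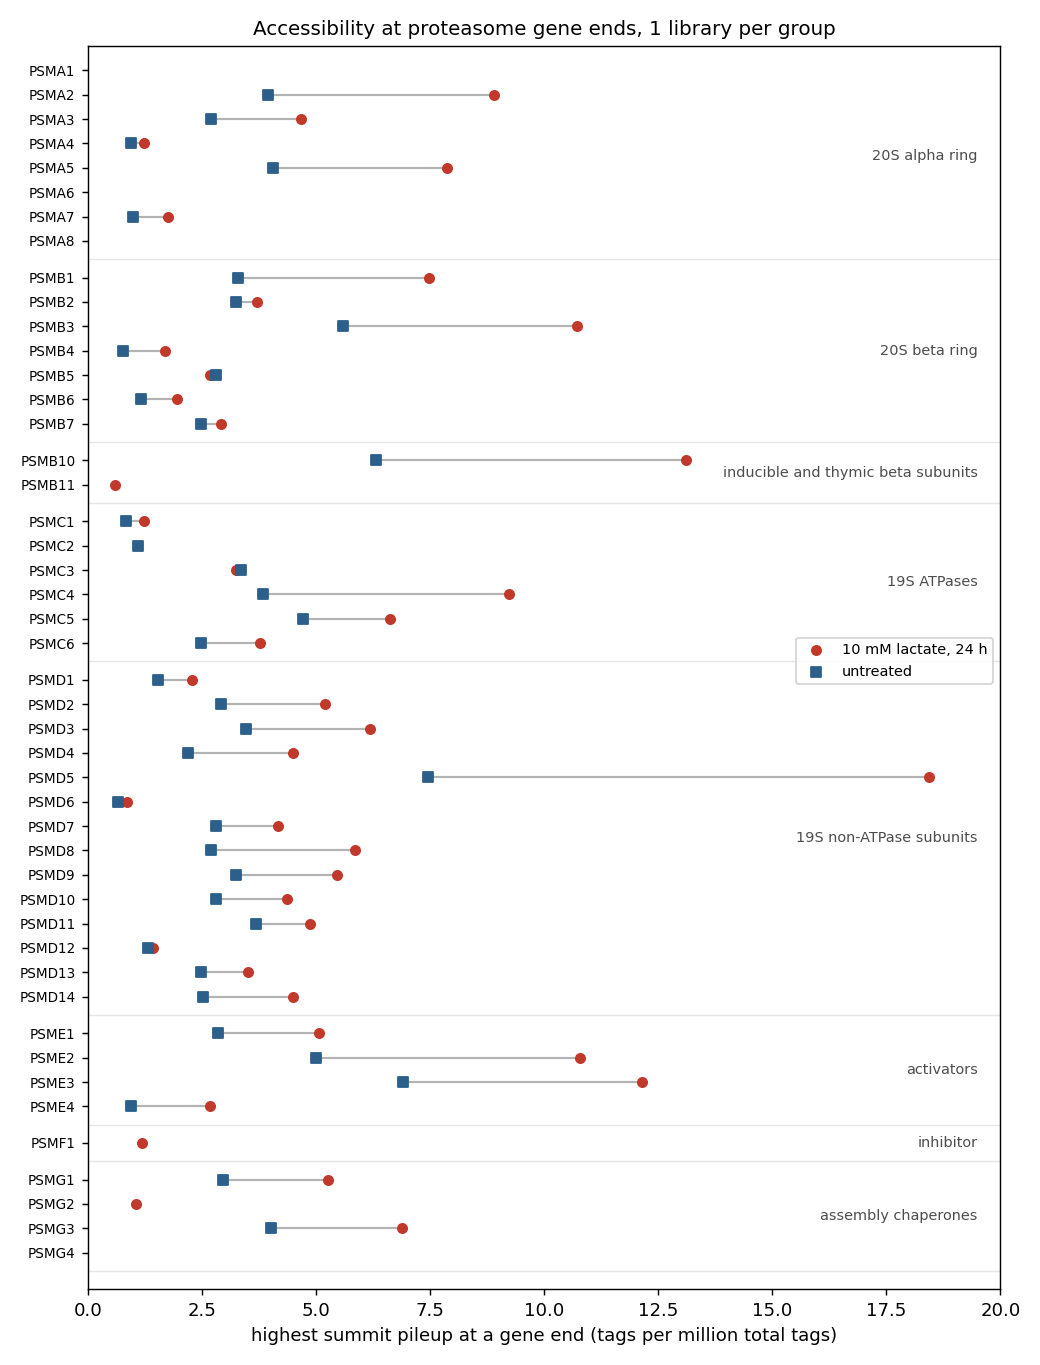
Highest summit pileup within 1 kb of a gene end for each of the 46 proteasome genes, in tags scaled to 1000000 tags in the library, grouped by sub-complex. Circles are the lactate library and squares the untreated library, 1 library each; a missing symbol means that no region was listed, and the lactate circle lies right of the untreated square at all but PSMB5 and PSMC3 among the genes with both.

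Scaled by total tags, the lactate library was higher at 36 of the 38 genes. The median ratio of lactate to untreated was 1.75 over the members and 1.84 over all genes open in both. Summed over the 38 members, 3188 lactate and 2111 untreated tags gave a ratio of 1.79 (conditional Poisson interval 1.69 to 1.89, counting error only). A ratio of at least 2 was reached by 10 of 38 members (26.3%) and by 38.8% of all genes, and 2 of 38 members (5.26%) lay below 1, against 3.39% of all genes. Because the ratio of all genes climbs with the number of tags, with bin medians between 1.3 and 2.05, each gene is also given as a relative ratio, its ratio divided by the median of genes in the same bin.

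**Figure D4:**
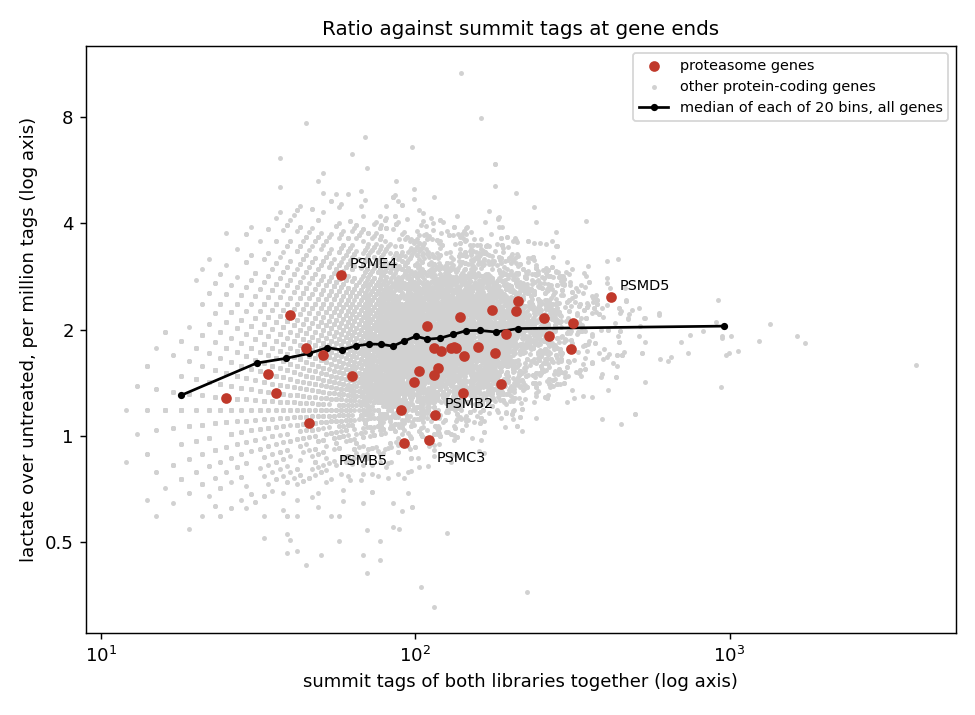
Ratio of lactate to untreated scaled summit pileup against the summit tags of both libraries together, on log axes, for 38 proteasome genes (red) and the other protein-coding genes open in both libraries (grey). The black line joins the medians of 20 bins of all genes, from 1.3 to 2.05, and 27 of the 38 proteasome genes lie below the median of their bin.

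Against genes with equal tags the members lay low as a group by pileup. Their median relative ratio was 0.919, and 27 of 38 (71.1%, exact interval 54.1 to 84.6) lay below 1, against 49.5% of all genes. A relative ratio of at most 1/1.5 was reached by 5 members (13.2%, 4.41 to 28.1; background 8.1%), PSMB5, PSMC3, PSMB2, PSMD12 and PSMB7, with PSMD11 just above the limit at 0.668. A relative ratio of at least 1.5 was reached by 1 member, PSME4 (2.63%; background 8.53%), and the next was PSMB4 at 1.33. The low position depended on the measure. With the fold enrichment over local background in place of the pileup, 19 of 38 members lay below 1, against 49.9% of all genes, and the median relative ratio was 1.0.

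Among the core's proteolytic subunits, PSMB5 had fewer tags in the lactate library, PSMB7 equal numbers and PSMB6 more in the lactate library. PSMB5, the chymotrypsin-like subunit, had 41 lactate and 51 untreated tags, which is 2.66 and 2.79 scaled tags and a relative ratio of 0.513 (0.331 to 0.789). Its region lies over the start (chromosome 14, 23034566 to 23035398 in the lactate list). PSMB7, the trypsin-like subunit, had 45 tags in each library, which is 2.92 scaled tags in the lactate and 2.47 in the deeper untreated library, and a relative ratio of 0.638 (0.413 to 0.987). PSMB6, the caspase-like subunit, had 30 lactate and 21 untreated tags and a relative ratio of 0.952 (0.527 to 1.75).

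The other beta ring genes, whose subunits have no proteolytic site, spread widely; values in brackets are relative ratios with their intervals. PSMB2 had 57 lactate and 59 untreated tags (relative ratio 0.605, interval 0.413 to 0.886), and PSMB3 had 165 and 102 (0.937, 0.728 to 1.21). PSMB4 had 26 lactate and 14 untreated tags (1.33, 0.668 to 2.75), the fewest of this ring. PSMB1 had 115 lactate and 60 untreated tags, but these summits are not in the same region. Its lactate summit sits in a region that covers an end of TBP, the gene of the TATA-binding protein. Over the upper end of PSMB1 itself the values were 69 and 60 tags, a ratio of 1.36 (0.950 to 1.96) instead of 2.27.

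The 5 alpha ring genes open at a gene end in both libraries had a median relative ratio of 0.963. PSMA2 had 137 lactate and 72 untreated tags, in a region that also covers an end of the mitochondrial ribosomal gene MRPL32, and PSMA5 had 121 and 74. PSMA3 had 72 lactate and 49 untreated tags, PSMA7 27 and 18, and PSMA4 19 and 17. Their relative ratios lay between 0.798 (PSMA4) and 1.12 (PSMA2), with intervals that all include 1. PSMA1 and PSMA6, open only over an inner start, lay outside this range. Against genes with a region over a start, their relative ratios were 0.725 and 1.38.

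PSMB10, the interferon-inducible counterpart of PSMB7, was among the tallest members, with 202 lactate and 115 untreated tags (13.1 and 6.30 scaled tags, relative ratio 1.02, interval 0.805 to 1.29). That region lies inside this short gene (chromosome 16, 67935490 to 67936380 in the lactate list) and does not cover the start.

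The ATPases of the cap had the lowest median relative ratio of the sub-complexes with 3 or more genes open in both, 0.798 over 5 genes. PSMC3 had 50 lactate and 61 untreated tags, or 3.25 and 3.34 scaled tags, and a relative ratio of 0.517 (0.348 to 0.764). PSMC5 had 102 and 86 (0.714, 0.531 to 0.962), in a region shared with an end of FTSJ3, and PSMC6 58 and 45 (0.798, 0.531 to 1.21). PSMC4 was on the other side, with 142 lactate and 70 untreated tags (1.19, 0.891 to 1.61). PSMC1 had 19 lactate and 15 untreated tags near its far end and 17 and 6 over its start, where the relative ratio was 2.33 from these few tags.

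The 14 non-ATPase genes had a median relative ratio of 0.874, and 11 of them lay below 1. PSMD5, a chaperone of cap assembly, had the tallest region of all members, with 284 lactate and 136 untreated tags (18.4 and 7.45 scaled tags, relative ratio 1.21, interval 0.983 to 1.5; chromosome 9, 120842783 to 120843579 in the lactate list). PSMD8, a lid subunit, had 90 lactate and 49 untreated tags (1.10), and PSMD4, a ubiquitin receptor, 69 and 40 (1.09). At the low end, the lid subunit gene PSMD12 had 22 lactate and 24 untreated tags (0.635, 0.339 to 1.18). PSMD11, also of the lid, had 75 lactate and 67 untreated tags (0.668, 0.474 to 0.943). PSMD13 had 54 lactate and 45 untreated tags (0.743), and PSMD7 64 and 51 (0.786).

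The remaining cap genes lay between these. PSMD14, the deubiquitinase that removes the chains, had 69 lactate and 46 untreated tags (0.94). PSMD2, a scaffold subunit, had 80 lactate and 53 untreated tags (0.923), and PSMD1, the other large scaffold, had 35 and 28 (0.823). PSMD3 had 95 lactate and 63 untreated tags (0.899), the assembly chaperone PSMD9 84 and 59 (0.85) and the assembly chaperone PSMD10, or gankyrin, 67 and 51 (0.823). All of these intervals include 1. PSMD6 had the fewest tags of any member open in both, 13 lactate and 12 untreated (0.985, 0.414 to 2.36).

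The activator genes included the member with the highest relative ratio. PSME4, which encodes the nuclear activator PA200, had 41 lactate and 17 untreated tags (2.66 and 0.932 scaled tags), a ratio of 2.86 and a relative ratio of 1.63 (0.907 to 3.06). Its lactate region (chromosome 2, 53970574 to 53971199) also covers an end of ACYP2. Its untreated region was a narrow one of 225 bp with a fold enrichment of 3.81. PSME1, an interferon-inducible partner in the PA28 cap, had 78 lactate and 52 untreated tags (0.918, 0.638 to 1.33). PSME2, its partner, had 166 and 91 (1.06, 0.813 to 1.38). PSME3, the nuclear PA28 gene, had 187 lactate and 126 untreated tags, but in a narrow region of 219 bp of the kind found all over both lists (19679 lactate and 17010 untreated regions). Over its start it had 45 lactate and 28 untreated tags, a ratio of 1.90 (1.16 to 3.17). Of the core assembly chaperones, PSMG1 had 81 lactate and 54 untreated tags (0.918) and PSMG3 106 and 73 (0.874).

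**Figure D5:**
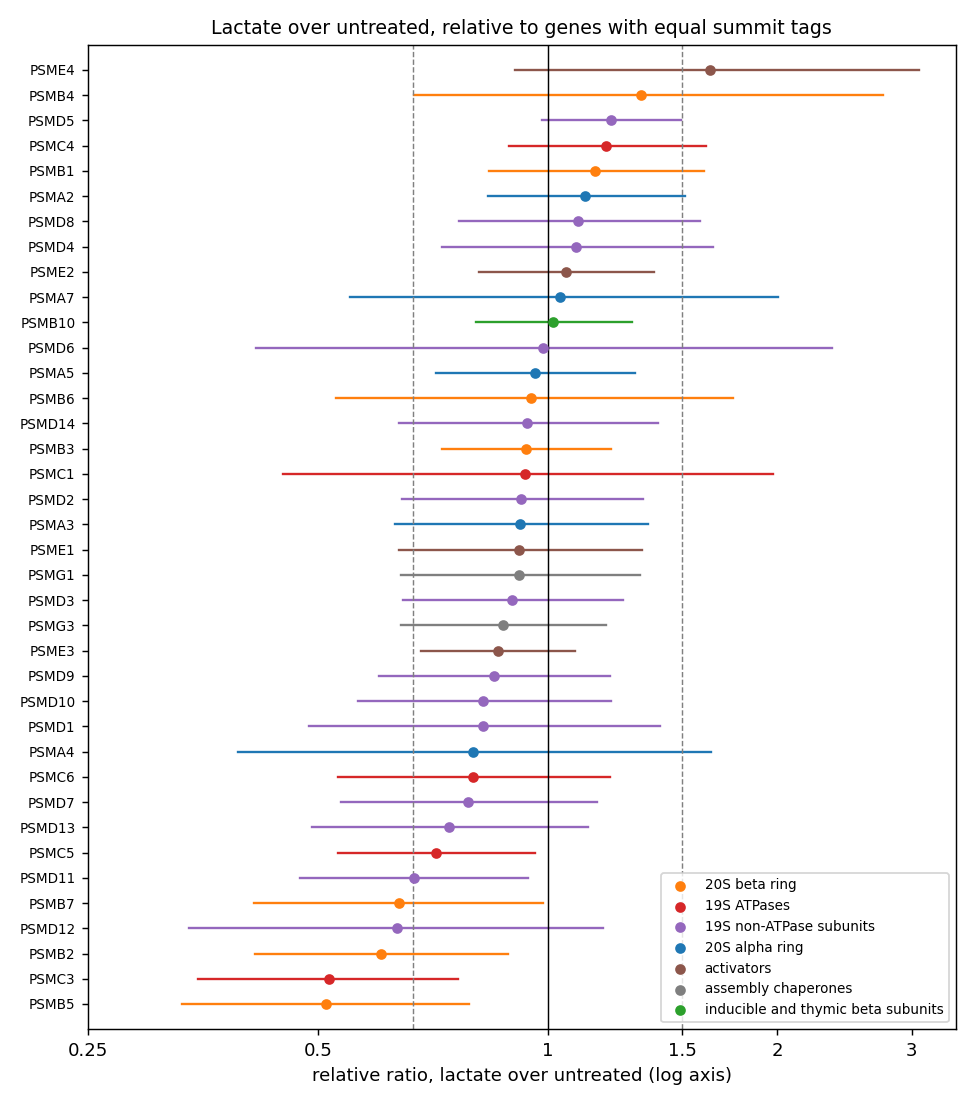
Relative ratio of lactate to untreated (log axis) for the 38 proteasome genes open in both libraries, coloured by sub-complex, with exact conditional Poisson intervals of the tag counts. Dashed lines mark 1/1.5 and 1.5; the intervals of 6 genes lie wholly below 1 and those of the other 32 include 1.

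Counting error covered the distance of most single genes from their bin. The interval of the relative ratio lay below 1 at 6 of 38 members (15.8%, exact interval 6.02 to 31.3; background 6.98%), PSMB5, PSMC3, PSMB2, PSMB7, PSMD11 and PSMC5. It lay above 1 at 0 of 38 (background 5.81%) and included 1 at 32. The plain ratio's interval lay above 1 at 25 members (65.8%; background 66.3%) and included 1 at 13. Restricted to regions over a listed start, 25 of 35 members lay below a relative ratio of 1 (background 49.6%) and the median was 0.893. There 5 members lay at or below 1/1.5 (PSMB2, PSMB5, PSMC3, PSMD12 and PSMG4; background 7.68%) and 2 at or above 1.5 (PSMC1 and PSME4; background 8.24%).

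Regions of the 2 lists at these gene ends overlapped about as often as at all protein-coding genes. Of 54 lactate regions, 46 (85.2%, exact interval 72.9 to 93.4) were overlapped by an untreated region, against 84.0% of all lactate gene-end regions. Of 48 untreated regions, 46 (95.8%, 85.7 to 99.5) were overlapped by a lactate region, against 94.2% of all untreated gene-end regions. The 2 untreated regions without a partner were those of PSMC2 (20 tags) and a second one at PSMB6 (14 tags). The highest regions of members had a median width of 776 bp in the lactate and 808 bp in the untreated list, against 740 and 738 bp over all genes. The highest gene-end regions of some members also covered an end of another protein-coding gene. These were SIRT3 for PSMD13, HPD for PSMD9, RNF31 for PSME2, FTSJ3 for PSMC5, ACYP2 for PSME4, TBP for PSMB1 and MRPL32 for PSMA2. How often this holds over all protein-coding genes was not counted. Away from gene ends and listed starts, the member genes held 26 regions in each list, a count not made over all protein-coding genes. The tallest in PSMB7, a gene without a listed start at hand, had 216 lactate and 97 untreated tags, more than its gene end (chromosome 9, 124392793 to 124393337 in the lactate list). A narrow one in PSMD14 had 189 lactate and 108 untreated tags, and one in PSMB1 had 177 and 143. A narrow one in PSMD1 was higher in the untreated library, with 47 lactate and 77 untreated tags.

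Other genes of the ubiquitin and proteasome pathway were taken from a fixed list of bound subunits, delivery factors and regulators. Results are given for the 26 of these genes that were open at a gene end in both libraries. Their median ratio was 1.64 and their median relative ratio 0.857, with 16 of 26 below 1 (background 49.5%). At or below 1/1.5 lay 4 of 26, DDI2, UBQLN1, UBQLN2 and RPS27A (background 8.1%), and at or above 1.5 lay 1 of 26, NGLY1 (background 8.53%). DDI2 encodes the protease that activates NFE2L1 and had 55 lactate and 64 untreated tags (relative ratio 0.539, interval 0.369 to 0.785). UBQLN1, a shuttle of ubiquitinated proteins, had 71 and 74 (0.573, 0.408 to 0.804). NGLY1, which removes glycans from NFE2L1, had 22 lactate and 9 untreated tags (1.80, 0.797 to 4.44). NFE2L1 itself had 177 lactate and 94 untreated tags (1.09, 0.845 to 1.42), and the subunit gene ADRM1 99 and 47 (1.26, 0.880 to 1.82). The 11 genes of bound subunits and maturation factors had a median of 0.971 and none past either limit.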

How the data were processed

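Accessibility lists of 1 lactate and 1 untreated library of CAL27 were used, grouped by the treatment label. Peak calling by the authors, per the file headers, was done with MACS 2.2.7.1 on each library without a control, at a q-value threshold of 0.05, with a shift of 100 bp and an extension of 200 bp, which centres tags on the Tn5 cut. BWA 0.7.12, fastp 0.20.0 and the build hg38 are named per the submitters' processing notes, which give MACS2 as 2.1.0. The deposited pileup is a signal, the tags over a summit, not scaled for depth. The deposited fold enrichment is a ratio of pileup to local background. Start, end, width and summit positions were deposited in bp.

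Where MACS split a region into several summits, the tallest stood for it. Regions on Y and contigs (255 lactate, 252 untreated) were not used. Gene ends came from RefSeq on GRCh38.p14 (hg38), and start sites, strands and sequences from its promoter table. Where a gene has several listed starts, the farthest upstream gave the promoter window. Intervals are exact 95% ones. Those of ratios cover counting error only and treat the bin median as fixed. Those of shares are binomial, treat genes, regions or promoters as independent draws, and do not cover counting error of tags. Narrow regions are single-summit regions from 1 bp below to 7 bp above the commonest width of 219 bp. The members and lists were chosen with earlier results of these data known. Members in 1 library alone or neither, the 5 highest and lowest relative ratios, the 5 with most tags and those with most and fewest tags of each sub-complex were to be named, and of the other pathway genes those not open in both and the 2 highest and 2 lowest relative ratios. One pathway gene is not reported here. Other genes were named after their values were seen, so that each sub-complex is complete. Alternatives changed the window, start sites, region filters, scaling, summit choice and measure. The ratio code was tested on simulated data. Python 3.11.15, pandas 2.3.3 and SciPy 1.17.1 were used.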

Additional observations from a re-analysis of the deposited data

How the results depend on the processing

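Under 11 alternative settings, 31 values were near those reported and 13 moved. Regions over a start site were chosen as an alternative after seeing the data. Members open in both libraries numbered 43 of 46 with a 2000 bp window, against 13601 of 19974 genes. At a fold enrichment of at least 5 they numbered 35 of 46, against 9495 of 19974. Over start sites they numbered 35 of 40, against 8541 of 15812, and the other settings lay between these. Members in the lactate library alone numbered 1 with a 500 bp window (5.93% of all genes) or with RefSeq starts only (5.20%). The median ratio was 0.953 when scaled by the median ratio of all genes, which sets that median to 1, and 1.42 by fold enrichment. Members at a relative ratio of at least 1.5 numbered 0 with a 2000 bp window, at a fold enrichment of at least 5 or without narrow regions (7.41 to 8.42% of all genes in these settings), and 2 at RefSeq starts, by summed pileups, by fold enrichment or over start sites (5.36 to 11.9%). Those at or below 1/1.5 numbered 3 of 35 at a fold enrichment of at least 5 (6.85% of all genes) and 2 of 38 by fold enrichment in place of pileup (4.72%). PSMB5 and PSMC3 were at or below 1/1.5 in 11 of 11 settings including the reported one, PSMB2 in 10, PSMD12 in 9 and PSMB7 in 6. PSMB7 has no listed start at hand, so it could not be counted in the settings that use start sites. PSME4 was at or above 1.5 in 8 of these 11 settings. No paired analysis was possible because lactate and untreated have 1 library each. Tags per summit limit what can be seen: even PSMD5, with the most, had an interval of 0.983 to 1.5.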
